A study of Mus musculus with 2 samples.

Results

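The genes of major histocompatibility complex (MHC) class I and of its peptide loading were followed between 2 cell populations of mouse dorsal skin. The 9 genes are the heavy chains H2-K1, H2-D1, H2-Q7 and H2-T23, the light chain B2m, the peptide transporter subunits Tap1 and Tap2, the loading factor Tapbp and the peptide-trimming Erap1. All probes that the array design assigns to these names were taken, which gave 18 of 41174 probes and 45 spots on each array. A probe was counted as measured if it was well above background for the same population on both arrays. By that filter 12 of the 18 probes and 7 of the 9 genes were measured, against 6195 genes in all, and Tap2 and Erap1 were not.

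The cells carried green fluorescent protein and a CreERT2 recombinase from a knock-in allele, and the brightest were sorted. One population came from Lgr5-EGFP-ires-CreERT2 mice (Lgr5-high) and the other from Lgr6-EGFP-ires-CreERT2 mice (Lgr6-high), with fluorescence driven by the Lgr5 or the Lgr6 promoter. Cells of 3 mice were pooled for a sort, and the labels give no strain, age, sex or treatment. Both RNAs were hybridised together on 2 Agilent arrays: Lgr5-high RNA carried Cy3 on array 1 and Cy5 on array 2, and Lgr6-high RNA the other dye. Nothing in the labels says that the arrays were hybridised with separate RNA, so the pair was read as 1 replicate, and no test of the populations was possible. Ratios are log2 of Lgr6-high over Lgr5-high, given per array and as mean ± SD of the 2 arrays, and the SD holds no spread between animals. In such bulk RNA, more cells with a transcript and more transcript per cell cannot be told apart.

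A class I molecule is a heavy chain held together with the B2m light chain and a short peptide, and it shows peptides made inside the cell to CD8 T cells. The peptides are cut by the proteasome, carried into the endoplasmic reticulum by the TAP1 and TAP2 transporter, trimmed there by ERAP1, and loaded with the help of tapasin (Tapbp), calreticulin and ERp57. H2-K1 and H2-D1 are the classical heavy chains of the mouse, while H2-Q7 (a Qa-2 antigen) and H2-T23 (Qa-1) are non-classical ones. Interferon gamma raises the transcription of most genes of this pathway, and hair follicles in their growing phase are known for low class I expression.

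Heavy chain genes are close paralogs, so the probe sequences show how far a signal can be assigned to 1 gene. Each pair below holds a member probe and the probe of another heavy chain that it resembles. Probes are given 5′ to 3′, with capitals for aligned bases that differ, and positions are on mouse build mm9. The H2-T23 probe lay at chr17:36167338-36167574 and the H2-Q7 probe at chr17:35579687-35579918, and 9 of 59 aligned bases differed.
H2-T23: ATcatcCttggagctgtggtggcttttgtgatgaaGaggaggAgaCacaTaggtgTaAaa
H2-Q7: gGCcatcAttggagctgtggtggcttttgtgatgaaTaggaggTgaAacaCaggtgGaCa
The brightest H2-D1 probe, at chr17:35403132-35403191, differed at 3 of 50 aligned bases from an H2-Q2 probe at chr17:35482113-35482172.
H2-D1: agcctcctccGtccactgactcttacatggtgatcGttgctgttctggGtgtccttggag
H2-Q2: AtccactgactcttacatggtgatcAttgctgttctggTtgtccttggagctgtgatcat
An H2-K1 probe at chr17:34136288-34136347 differed at 12 of 52 aligned bases from an H2-Q10 probe at chr17:35607907-35607966.
H2-K1: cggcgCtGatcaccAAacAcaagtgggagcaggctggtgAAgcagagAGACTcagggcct
H2-Q10: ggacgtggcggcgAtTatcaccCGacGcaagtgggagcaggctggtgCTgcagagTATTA
A further H2-K1 probe, spread over chr17:34136478-34136724, differed at 13 of 59 aligned bases from an H2-Bl probe spread over chr17:36220441-36220687.
H2-K1: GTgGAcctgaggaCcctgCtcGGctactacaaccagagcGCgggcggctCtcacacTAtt
H2-Bl: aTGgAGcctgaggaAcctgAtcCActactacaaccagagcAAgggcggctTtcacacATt
Over all members, 5 of 9 heavy chain probes resembled the probe of another heavy chain (at least 75% of at least 30 aligned bases identical). None of the 9 probes of B2m, Tap1, Tap2, Tapbp and Erap1 resembled a probe of another gene by this measure, which covers only probes on the array.

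Class I heavy chains and their light chain were higher in the Lgr6-high cells, with like ratios on both arrays in the main processing. That likeness depends on the processing. With median centring in place of loess, arrays 1 and 2 gave 1.99 and 6.47 for H2-K1 and 0.86 and 4.78 for B2m. Calls were made by size: the mean had to reach 1 on the log2 scale (2-fold), and each of the arrays 0.5 with the same sign. By this rule 6 of the 7 measured members were called higher in Lgr6-high cells and 0 in Lgr5-high cells, against 7.28% and 4.76% of all 6195 measured genes. The median ratio was 2.63 over the 7 measured members, 2.88 over the 4 heavy chains and -0.05 over all measured genes. By single probes, 11 of the 12 that passed were called higher in Lgr6-high cells, and 0 lower, against 7.08% and 4.53% of all 7279 that passed. Because a probe could pass through the brighter population alone, these counts describe the measured members and not all 9 genes.

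**Figure D1:**
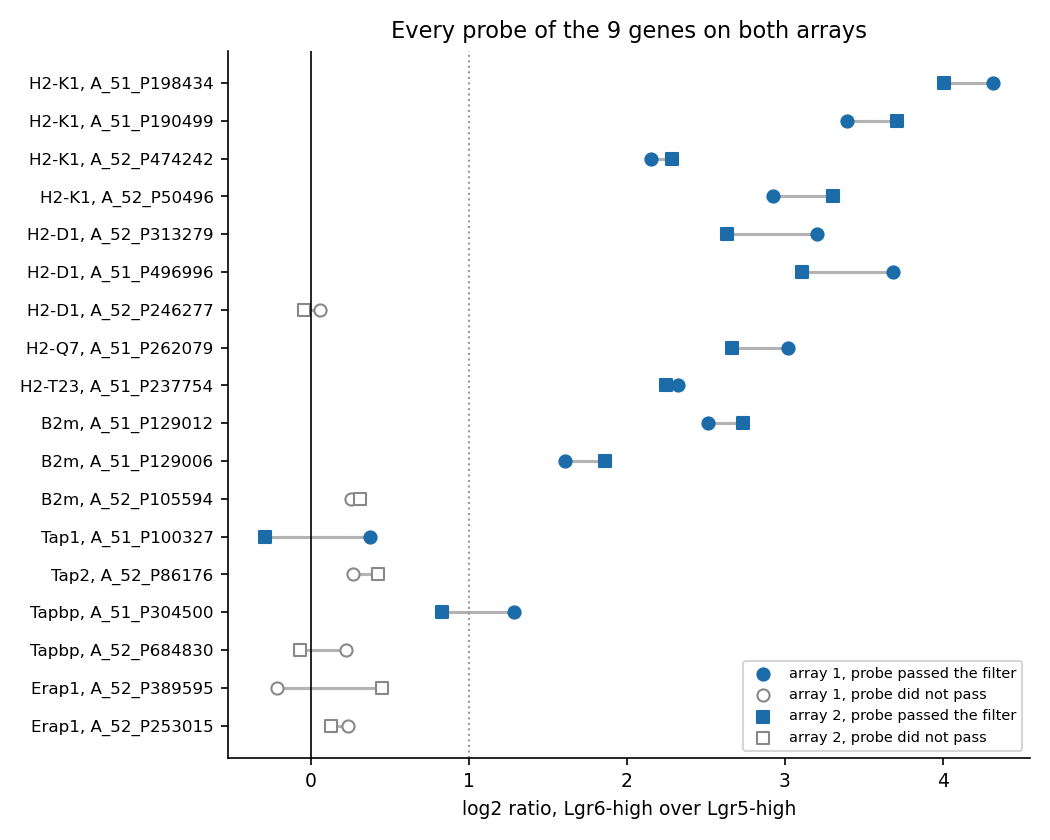
Log2 ratio of Lgr6-high over Lgr5-high (x axis) for each of the 18 member probes (rows), with a circle for array 1, a square for array 2 and open symbols for probes that did not pass the filter. The 10 passing probes of the 4 heavy chains and B2m lie between 1.61 and 4.32 on every array, whereas Tap1 straddles 0.

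H2-K1, a classical heavy chain, had the largest ratio of the members. Its brightest probe, at chr17:34133055-34133114, measured 4.32 on array 1 and 4.01 on array 2, and the mean of 4.17 ± 0.22 is 17.9-fold and rank 7 among the 6195 genes. Background-subtracted spot intensities show the same separation within a dye. In Cy3 the Lgr5-high cells gave 803 and the Lgr6-high cells 28768, and in Cy5 they gave 221 and 2813. This probe was printed on 10 spots, whose ratios ran from 4.07 to 4.66 on array 1 (9 spots, SD 0.19) and from 3.66 to 4.25 on array 2 (10 spots, SD 0.17). No spot came near 0. The other 3 H2-K1 probes had 3.55 ± 0.22 (array 1 3.40, array 2 3.71), 3.11 ± 0.27 (2.92 and 3.31) and 2.22 ± 0.10 (2.15 and 2.29). For the probe with 3.11, Lgr5-high signal cleared background on 1 array. All 4 were called, and their means range from 2.22 to 4.17 although they carry 1 gene name. The lowest, 2.22, is the probe that resembles H2-Bl. The dim H2-Bl probe itself had 1.14 ± 0.02, with Lgr5-high signal above background on 1 array. By the scanner's own ratio the order was reversed, with 3.20 for H2-Bl and 2.81 for this H2-K1 probe. The other H2-K1 probes had 4.62, 4.53 and 4.48 by that ratio, closer together than in the main values. Why the probes differ was not tested.

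H2-D1, the other classical heavy chain, was high by both probes that passed. The brightest measured 3.20 and 2.64 on arrays 1 and 2 (2.92 ± 0.40, 7.57-fold, rank 29). Its Cy3 signal was 1318 in Lgr5-high and 19511 in Lgr6-high cells, and its Cy5 signal 413 and 2058. The other, spread over chr17:35403437-35403669, measured 3.68 and 3.11 (3.40 ± 0.41), and no probe of another gene resembled it. The remaining probe under this name, at chr17:36323454-36323516, never cleared background (0.00 ± 0.07). The files place it 920.3 kb from the brightest H2-D1 probe and 97 bases from an H2-T3 probe, which was at background as well (-0.04 ± 0.19). Its gene name and its position therefore disagree, and it was not read as a measure of H2-D1.

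The non-classical heavy chains had ratios of like size. H2-Q7 measured 3.02 and 2.67 (2.84 ± 0.25, 7.18-fold, rank 36), with Cy3 signals of 587 in Lgr5-high and 7957 in Lgr6-high cells and Cy5 signals of 174 and 939. Its 10 spots ran from 2.79 to 3.28 on array 1 (9 spots used) and from 2.45 to 3.37 on array 2. H2-T23 measured 2.32 and 2.25 (2.29 ± 0.05, 4.88-fold, rank 79), with 931 against 9069 in Cy3 and 266 against 865 in Cy5. Its call is lost with median centring in place of loess, where array 1 gives 0.13 and array 2 4.58. By the brightest probes, the per-array values of H2-D1 and H2-Q7 overlap, whereas H2-T23 lies below both of them on either array. H2-K1 lies above these 3 on either array. The arrays hold 34 probes named as other H2 class I genes, and 13 of them passed. Of these 13, 12 were called higher in Lgr6-high cells, against 7.08% of all 7279 probes that passed. The 13 had a median of 2.62 and a range of 0.86 to 3.02. Among probes that resembled a member probe, 5 of 6 passed and 5 were called, and among those that did not, 8 of 28 passed and 7 were called (median 2.49).

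High ratios were not seen at every similar probe. An H2-Q10 probe at chr17:35610468-35610527 is identical to the H2-Q7 probe at 82.6% of 46 aligned bases, and it was at background throughout (-0.24 ± 0.11). Probes under the H2-Q10 name disagree. Those with 2.75 and 2.66 passed and were called, and those with 0.42 and -0.0033 did not pass. Of the 30 other listed class I and class I-like heavy chains, 21 were on the array and 7 were measured. All 7 were called higher in Lgr6-high cells (median 2.81), against 7.28% of all 6195 measured genes. The call of H2-Bl is lost without background subtraction (0.70) and with outlier spots in the background fit (0.65). That of H2-T22 is lost with those spots in the fit (0.35 on array 2) and with median centring (-0.0042 on array 1). The largest were H2-Q4 (3.02 ± 0.42), H2-Q5 (2.94 ± 0.27) and H2-Q8 (2.90 ± 0.01, Lgr5-high signal above background on 1 array). The files place the H2-Q5 probe at chr17:36246864-36247298, beside an H2-T-ps probe at chr17:36246598-36246657 and far from the H2-Q7 probe. Its assignment to H2-Q5 is therefore uncertain. How much of any of these signals came from a paralog was not tested.

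B2m lies on chromosome 2, apart from the H2 genes, and encodes the light chain that every class I molecule shares. Its brightest probe, at chr2:121978401-121978460, measured 2.51 on array 1 and 2.74 on array 2 (2.63 ± 0.16, 6.17-fold, rank 50). The Cy3 signal was 190 in Lgr5-high and 3803 in Lgr6-high cells, and the Cy5 signal 71.3 and 299. A neighbouring probe at chr2:121978525-121978581, printed on 10 spots, measured 1.61 and 1.86 (1.74 ± 0.18), where Lgr5-high signal cleared background on array 1 only. Its spots ran from 1.31 to 1.97 on array 1 and from 1.70 to 2.02 on array 2 (8 spots used). For this dim probe the offset of 50 in the background correction pulls ratios toward 0, and the scanner's own ratio was 3.43 and 4.54. The remaining probe, at chr2:121974599-121974658, cleared background in Lgr6-high cells on array 2 and nowhere else (0.28 ± 0.04). So B2m, which no probe of another gene resembled, was called by both probes that passed. The brightest lay within the range of the passing heavy chain probes (2.22 to 4.17), and the dimmer one below it.

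**Figure D2:**
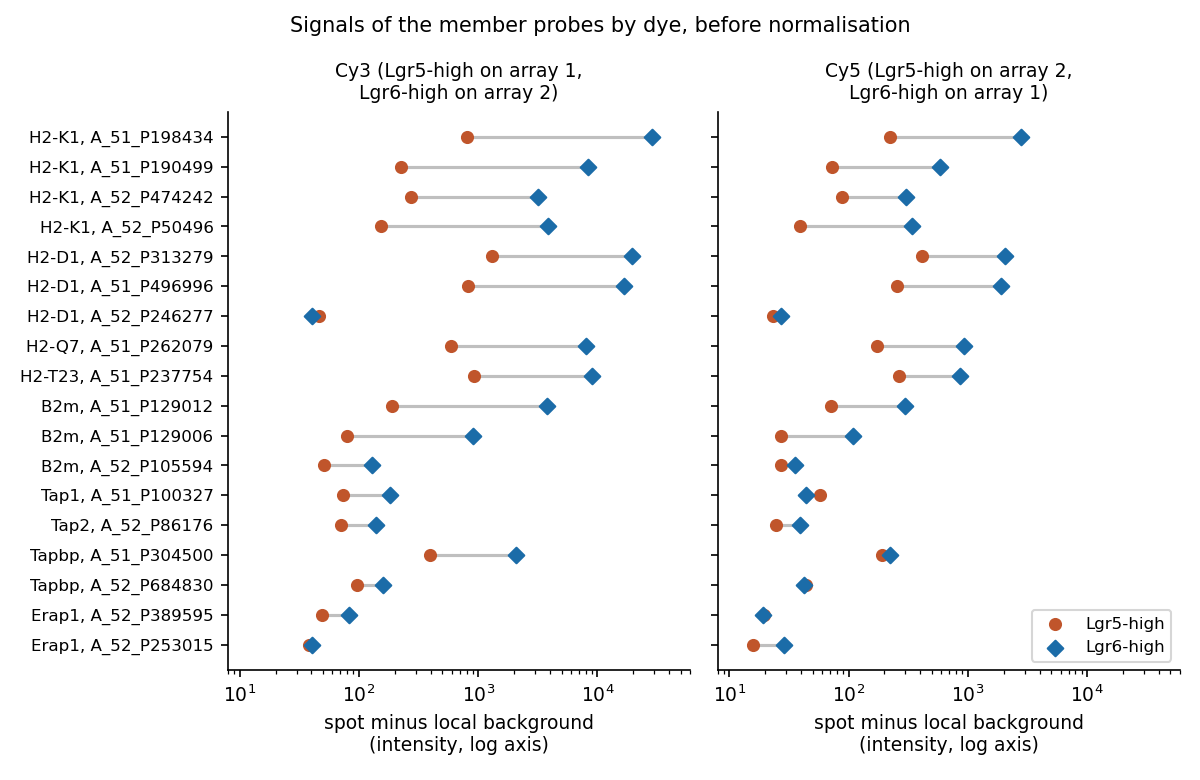
Background-subtracted spot intensity (x axis, log scale) of each member probe (rows) in Cy3 (left) and Cy5 (right), with Lgr5-high cells as circles and Lgr6-high cells as diamonds. For H2-K1 the Cy3 signal goes from 803 to 28768 and the Cy5 signal from 221 to 2813, while the Tap2 and Erap1 probes stay at the dim end in both populations.

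The loading genes had smaller ratios or were too dim to compare. Tapbp (tapasin), which bridges the heavy chain to the transporter, measured 1.29 and 0.83 at chr17:34066022-34066081 (1.06 ± 0.32, 2.08-fold, rank 414). Its Cy3 signal was 396 in Lgr5-high and 2094 in Lgr6-high cells, and its Cy5 signal 190 and 221. Signals of 1 dye come from different arrays and are not scaled to each other. Centred within each dye on the median of all measured genes, Tapbp had log2 ratios of 1.89 in Cy3 and 0.61 in Cy5. The call of Tapbp is the least firm of the 6. It is lost from array 2 alone (0.83), without background subtraction (0.75) and with marked outlier spots in the background fit (0.79). With median centring in place of loess it is lost too, and array 1 then gives -0.49. A further Tapbp probe, at chr17:34063096-34063155, did not pass (0.08 ± 0.21).

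Tap1, a subunit of the peptide transporter, measured 0.37 on array 1 and -0.29 on array 2 at chr17:34330854-34330913 (0.04 ± 0.47). Lgr5-high signal cleared background on both arrays and Lgr6-high signal on 1. The signals were low, with 73.5 and 182 in Cy3 and 57.9 and 43.6 in Cy5 for Lgr5-high and Lgr6-high cells. Centred in the same way as Tapbp, Tap1 had log2 ratios of 0.80 in Cy3 and -0.01 in Cy5. The arrays point in opposite directions, and the SD is larger than the ratio. Tap2, the other subunit, had 0.27 and 0.42 at chr17:34351722-34352309, with each population above background only where it carried Cy3. The scanner's own ratio for Tap2 was 1.21 and 2.18. Erap1, the trimming peptidase, had 0.12 ± 0.47 at chr13:74828067-74828126 and 0.18 ± 0.07 at chr13:74805822-74805881. The first cleared background in Lgr6-high cells on array 2 alone, and the last nowhere. At these signals a difference in Tap1, Tap2 or Erap1 was not detectable, which does not show that it is absent.

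**Figure D3:**
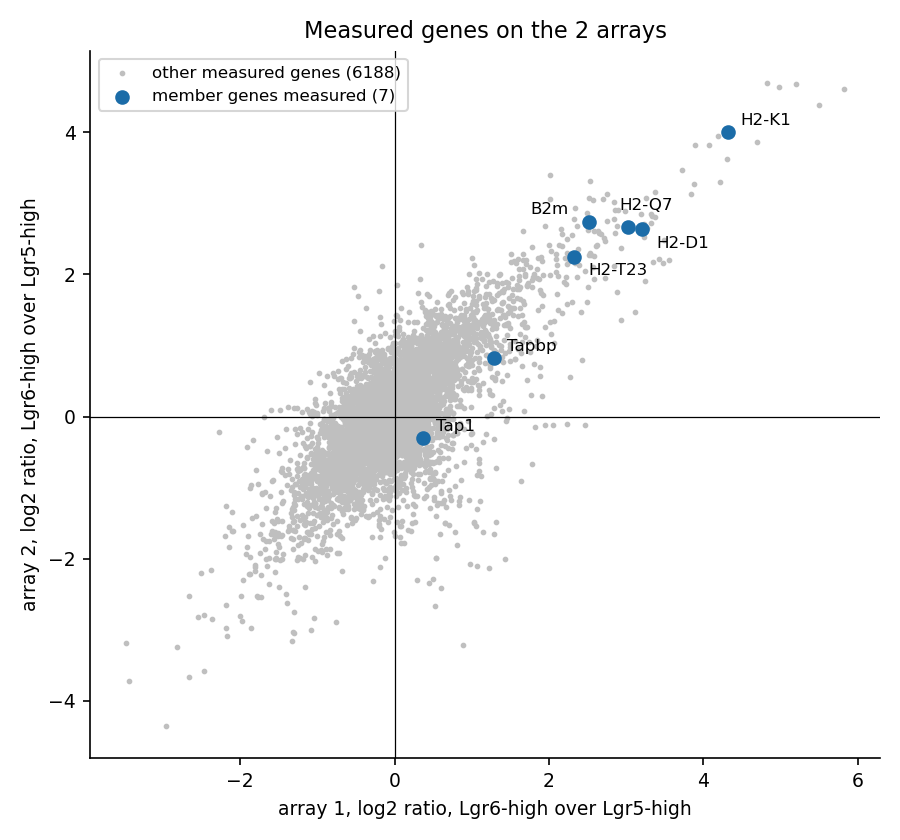
Log2 ratio of Lgr6-high over Lgr5-high on array 1 (x axis) against array 2 (y axis) for 6195 measured genes (grey), with the 7 measured members in blue. H2-K1, H2-D1, H2-Q7, H2-T23 and B2m lie above 2 on both arrays, Tapbp at 1.29 and 0.83, and Tap1 at 0.37 and -0.29.

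As an alternative, limma's moderated test on the 2 arrays with Benjamini-Hochberg adjustment over all 6195 genes was read with the same 2-fold minimum. It called the same 6 members, and 0 in the other direction, against 7.39% and 4.87% of all genes, with adjusted p from 1.85e-07 for H2-K1 to 0.00559 for Tapbp, and 0.930 for Tap1. These p-values rest on how far 2 hybridisations differed, which may be technical, and hold nothing of the spread between animals.

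Other genes of the pathway were read from fixed lists. The immunoproteasome subunits, which replace the constitutive ones when interferon acts, were higher in Lgr6-high cells for 2 of 5 genes listed with their activator. Psmb8 measured 1.92 and 1.70 (1.81 ± 0.16, Lgr5-high signal above background on 1 array) and Psmb9 1.45 and 1.29 (1.37 ± 0.11). Psmb10 (0.85 ± 0.42) and the activator genes Psme2 (0.97 ± 0.05) and Psme1 (0.58 ± 0.07) were not called, and the list median was 0.97. The call of Psmb9 is lost without background subtraction (0.96), and both calls are lost with outlier spots in the background fit, where Psmb8 has 1.14 (0.36 on array 2) and Psmb9 0.88. Their constitutive counterparts Psmb5 (-0.78 ± 0.13), Psmb6 (-0.77 ± 0.41) and Psmb7 (-0.23 ± 0.45) were not called either, with a median of -0.77. Chaperones and glycan-trimming partners of class I assembly gave 0 calls among 7 measured of 8, with a median of -0.33. In this list Canx (calnexin) had -0.40 ± 0.38, Prkcsh, a glucosidase subunit, -0.79 ± 0.26 and Hspa5, a general chaperone, 0.66 ± 0.65.

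The Psmb and Tap genes alternate on chromosome 17 within 33.1 kb. In mm9 order Psmb9 had 1.37, Tap1 0.04, Psmb8 1.81 and Tap2 0.34. Tap2 did not pass the filter and Tap1 was dim, so whether neighbours differed cannot be told. The scanner's own ratios for the same 4 probes were 2.23, 0.50, 3.26 and 1.69. Over all measured genes between the outermost H2 class I probes of the members, chr17:34133055-36167574 (2.03 Mb), 5 were members, 5 other class I heavy chains and 48 other genes. Of the members 4 were called higher in Lgr6-high cells, of the other heavy chains all 5 (median 2.81). Of the other 48 genes, 5 were called toward Lgr6-high and 2 toward Lgr5-high, against 7.28% and 4.76% of all 6195 measured genes. The median of the 48 was 0.09. The 5 were Psmb8, Psmb9, the stress-response gene Ier3 (1.67 ± 0.31), the matrix gene Tnxb (1.01 and 1.18) and an unnamed transcript beside the H2-D1 probes (1.30 ± 0.08), and the 2 were Ddah2 (-1.44 ± 0.38) and Tubb5 (-2.41 ± 0.79). These 7 were named after their values were seen, and with median centring only Psmb8 of them keeps its call. Without background subtraction the calls of Tnxb (0.69) and the unnamed transcript (0.75) are lost. With outlier spots in the background fit those of Tnxb (0.59), the unnamed transcript (0.70) and Ddah2 (-0.75) are lost.

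**Figure D4:**
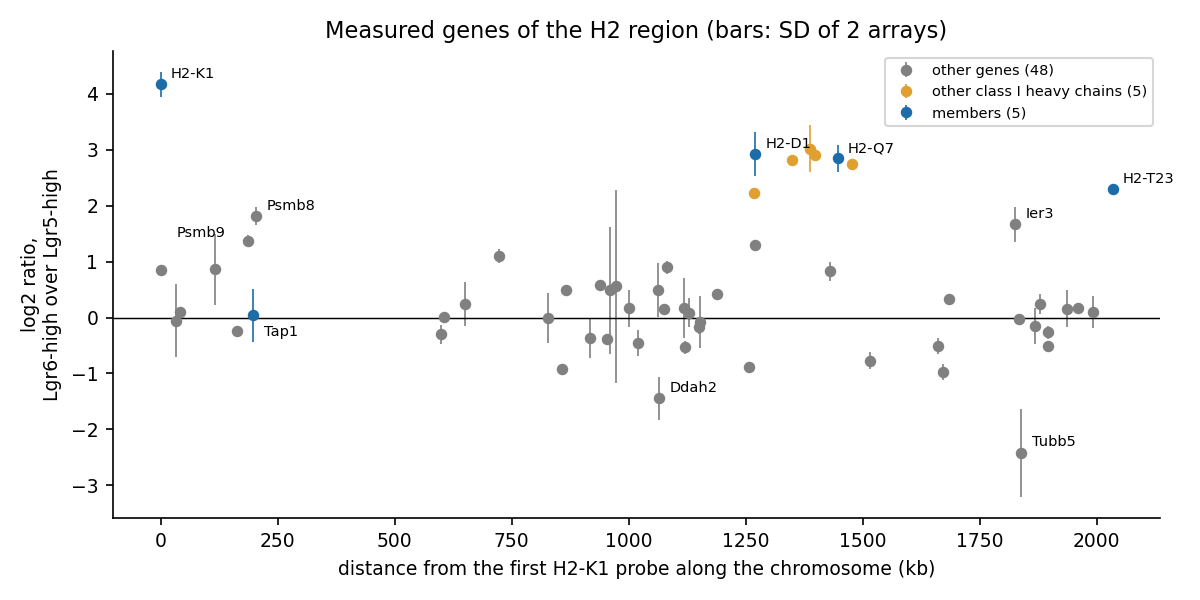
Mean log2 ratio of Lgr6-high over Lgr5-high (y axis, bars SD of 2 arrays) against distance along chromosome 17 from the first H2-K1 probe (x axis, kb) for the 58 measured genes of the H2 region. The 48 other genes (grey) scatter around their median of 0.09, while 4 of 5 members (blue) and all 5 other class I heavy chains (orange) lie above 2.

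Regulators and interferon genes gave mixed values. Among 6 measured of 12 listed regulators of class I transcription, 2 were called, the NF-kappaB subunit Rela (1.67 ± 0.44) and the interferon regulatory factor Irf1 (1.11 ± 0.25). The call of Irf1 is lost from array 2 alone (0.93), without background subtraction (0.76) and with outlier spots in the background fit (0.76). With median centring both calls are lost, and array 1 turns to -0.85 for Rela and -1.01 for Irf1. Nfyb (-0.14 ± 0.54) and Rfxap (0.15 ± 0.38) were not called, and Nlrc5, the class I transactivator, had no probe under that name. Of 5 measured interferon receptor and kinase genes, Ifngr1, a chain of the interferon gamma receptor, was called (2.53 and 3.31, mean 2.92 ± 0.56, Lgr5-high signal above background on 1 array). Its partner chain Ifngr2 had -0.04 ± 0.18, and the kinases Jak1 and Jak2 had 0.72 ± 0.91 and 0.67 ± 0.19. Of 33 interferon-inducible genes only 4 were measured, and of these Irf1 was called. Socs1 had 0.70 ± 0.56 and Cxcl10 0.56 ± 0.12, and most of the list was too dim to compare. Class II genes, which present peptides on professional antigen-presenting cells, had 1 measured member of 12, H2-DMb1 (-0.25 ± 0.00), and 0 calls. Of 9 NKG2D ligand genes 4 were on the array and 0 were measured.

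Markers of other cell types moved between the populations too. Leukocytes express class I strongly, and 0 of 23 leukocyte markers were measured. Of their 42 probes, 2 cleared background on some array in Lgr5-high and 1 in Lgr6-high cells, and 0 did so on both arrays. Their summed Cy3 signal was 1941 in Lgr5-high and 1846 in Lgr6-high cells, and their summed Cy5 signal 985 and 1022. All 4 probes of Ptprc, the pan-leukocyte CD45, were at background. Keratinocyte markers were measured for 13 of 13 genes, and 9 were called higher in Lgr6-high cells, with a list median of 1.40. The brightest, Krt5 (1.82 and -0.15), Krt14 (2.24 and -0.10) and Krt15 (1.95 and -0.12), had opposite signs on the arrays and were not called. By the scanner's own ratio they had 1.07 and 1.17, 1.65 and 1.06, and 1.43 and 1.11. The summed signal of the keratinocyte markers in Lgr5-high and Lgr6-high cells was 181457 and 578977 in Cy3 and 49100 and 79165 in Cy5. With median centring 2 of the cell type lists' genes were called toward Lgr6-high. Fibroblast markers (5 of 8 measured) were called higher in Lgr5-high cells for 4, with a median of -2.58, and summed signals of 5076 and 848 in Cy3 and 1233 and 362 in Cy5. The endothelial list had 1 measured gene of 11, Egfl7, called in the same direction (at least 2.19-fold, with the call lost from array 1 by itself, -0.93, without background subtraction, -0.64, and with outlier spots in the fit, -0.52). Its summed signals were 954 and 788 in Cy3 and 486 and 414 in Cy5. The part that these shifts have in the class I ratios was not tested.

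**Figure D5:**
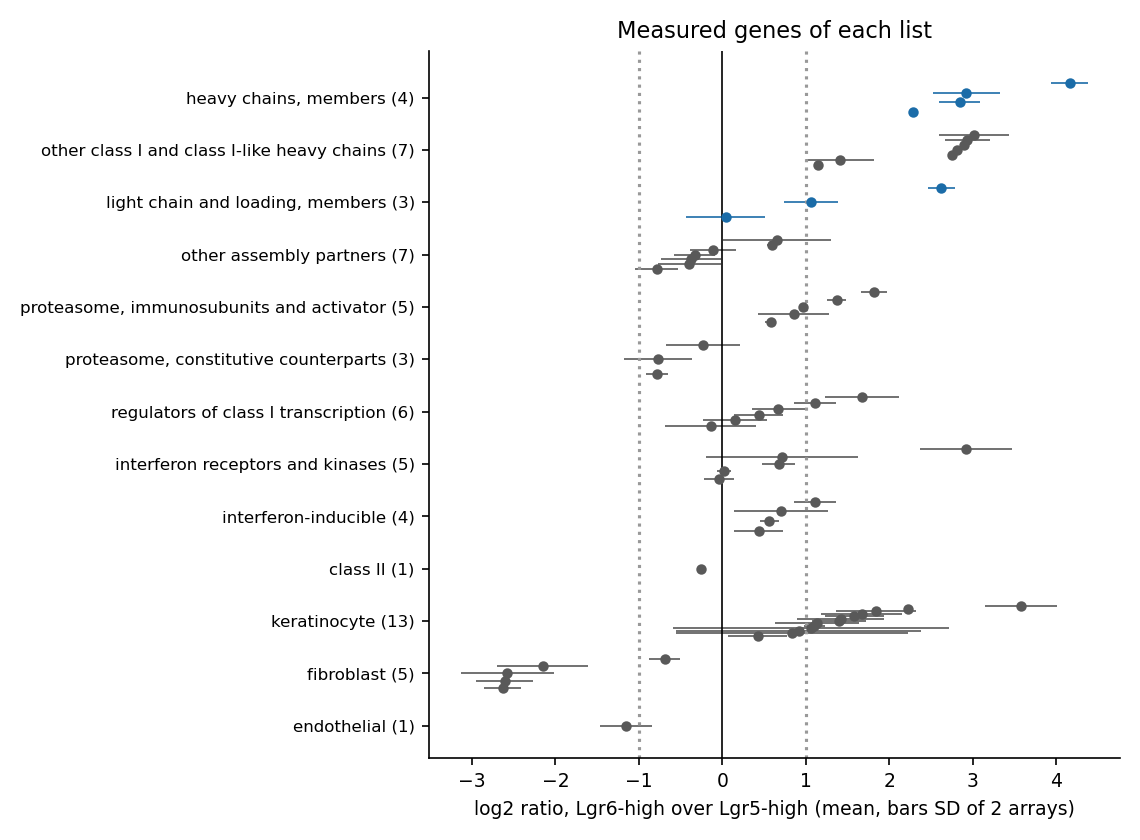
Mean log2 ratio of Lgr6-high over Lgr5-high (x axis, bars SD of 2 arrays) of every measured gene in each list (rows, number measured in brackets), with the members in blue and dotted lines at 2-fold. The member heavy chains lie at 2.29 to 4.17, the immunosubunits and activator genes between 0.58 and 1.81, and the constitutive proteasome counterparts and fibroblast markers below 0.

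Sequences upstream of the members are shown as a description, and a link to the ratios was not tested. They are the 250 bases before the gene start from RefSeq (GRCm38.p6), 5′ to 3′ on the gene's strand, and 8 of the 9 members had an entry. Capitals mark letters that match, on either strand, the core of the interferon-stimulated response element (GAAA, any 2 bases, GAAA), the NF-kappaB consensus, CCAAT or TGACG. H2-K1 (chr17:34000348-34000597, minus strand) had the largest ratio.
H2-K1: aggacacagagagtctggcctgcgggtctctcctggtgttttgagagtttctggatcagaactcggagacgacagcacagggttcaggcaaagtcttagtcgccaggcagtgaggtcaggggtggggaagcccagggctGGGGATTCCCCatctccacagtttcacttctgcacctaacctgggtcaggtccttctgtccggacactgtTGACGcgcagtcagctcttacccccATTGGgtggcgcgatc
H2-D1 (chr17:35262844-35263093) is the classical paralog.
H2-D1: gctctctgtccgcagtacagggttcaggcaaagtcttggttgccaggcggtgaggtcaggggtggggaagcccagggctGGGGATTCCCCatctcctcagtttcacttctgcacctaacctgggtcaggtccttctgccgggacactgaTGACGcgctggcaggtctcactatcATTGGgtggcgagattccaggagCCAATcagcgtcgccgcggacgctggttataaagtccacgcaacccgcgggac
H2-T23 (chr17:36032702-36032951, minus strand) is a non-classical heavy chain.
H2-T23: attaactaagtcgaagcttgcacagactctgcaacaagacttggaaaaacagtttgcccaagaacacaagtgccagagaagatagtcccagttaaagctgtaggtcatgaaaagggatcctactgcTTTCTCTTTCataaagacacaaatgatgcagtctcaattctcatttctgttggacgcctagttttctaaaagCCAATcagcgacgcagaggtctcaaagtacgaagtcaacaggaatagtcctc
For B2m (chr2:122147437-122147686), no probe of another gene on the array resembled its probes.
B2m: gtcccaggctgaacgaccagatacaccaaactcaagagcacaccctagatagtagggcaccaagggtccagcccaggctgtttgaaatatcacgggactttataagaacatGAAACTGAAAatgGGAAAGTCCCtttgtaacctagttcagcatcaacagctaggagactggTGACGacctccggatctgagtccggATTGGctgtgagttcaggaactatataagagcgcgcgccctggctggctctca
Tap1 (chr17:34187306-34187555) had a ratio near 0, at signals where a difference was not detectable.
Tap1: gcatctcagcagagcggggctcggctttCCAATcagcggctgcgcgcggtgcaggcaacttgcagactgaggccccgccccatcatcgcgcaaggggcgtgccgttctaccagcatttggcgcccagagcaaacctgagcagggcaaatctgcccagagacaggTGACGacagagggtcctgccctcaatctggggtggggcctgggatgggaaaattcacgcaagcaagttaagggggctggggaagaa
The NF-kappaB consensus, CCAAT and TGACG occurred together before H2-K1, H2-D1, H2-Q7 and B2m, and in 0.488% of 27025 promoters of that length. The motifs were listed singly, and this combination is one that these members carry, so its share is a description and not a test. In H2-K1 and H2-D1 the NF-kappaB letters match in overlapping positions, first 111 and 171 bases before the start. Aligned without gaps, the upstream stretches of H2-K1 and H2-D1 were 87.4% identical over 190 aligned bases. That of H2-Q7, not printed here, was 50.4% identical to H2-K1 and 54.5% to H2-D1. Inserted or missing bases break such an alignment, so the H2-Q7 values can understate the likeness. H2-K1, H2-D1 and H2-Q7 are therefore not separate observations, whereas B2m and H2-K1 reached 34.3%. B2m also held the interferon element core 139 bases before its start, as did H2-T23 at 124 bases together with CCAAT. Tap1 held CCAAT and TGACG, Tapbp CCAAT at 2 places, and Erap1 had no match in this window. Over all promoters the interferon core was found in 3.04%, the NF-kappaB consensus in 7.01%, CCAAT in 34.5% and TGACG in 17.9%. A match is a description of letters and was not tested for binding. Only these exact patterns were searched. A stretch without a match, such as H2-K1, H2-D1 or H2-Q7 for the interferon core, can still hold a variant of it.

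In the whole series, 31.6% and 33.3% of probe spots cleared background in Cy3 and 15.3% and 16.2% in Cy5 (arrays 1 and 2), so that the number of arrays and the dim Cy5 channel limit the precision. The Lgr5 probe that passed had -1.83 ± 0.12, in the direction of its label. Neither Lgr6 probe passed (0.05 ± 0.14 and 0.02 ± 0.14), so that transcript gave no check of its label.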

How the data were processed

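For either array the authors deposited a scanner table with each spot's linear mean intensity and local background in Cy3 and Cy5. It came from Agilent Feature Extraction 10.5.1.1, per the file headers, while the submitters' processing notes name 9.5.3. Also deposited there are the software's log10 ratio of Cy5 over Cy3 and a p-value of it, and the authors' value table holds that log10 ratio, turned to Lgr6-high over Lgr5-high. Probe positions are on mm9, per the file headers.

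With limma 3.58.1 in R 4.3.3, intensities were corrected by normexp (offset 50, fitted without spots marked as outliers), and ratios were loess-normalised within each array with controls at weight 0. Marked spots (139 and 204 probe spots) and controls were dropped, spots of a probe were averaged, and the labels' dyes gave the direction of the log2 ratios. A probe passed if at least 50% of its spots were well above background for the same population on both arrays. A gene is its brightest passing probe. An "at least" fold sets the brighter population against the higher of the other's own level and the lowest level well above background, after loess and Aquantile, and is open to dye bias.

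The calling code was tested on simulated data. Alternatives were the scanner's and the authors' ratios, other background, scaling, filter and probe choices, each array alone, and limma. Members and lists were chosen with earlier results of these data known. Named genes are all members with every probe and, of other lists, up to 6 called genes by size and up to 3 measured, uncalled ones by intensity; H2-Bl and single further probes were named for their sequence or position. Dye is balanced by the swap, and slide and scan cannot separate populations that share each array.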

Additional observations from a re-analysis of the deposited data

How the results depend on the processing

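The 12 alternatives are not all separate checks. The authors' table repeats the scanner's ratios, and the filter choices and limma kept the main ratios of the called members. Over these 12 alternatives, members called higher in Lgr6-high cells numbered 6 in 8. They numbered 5 without background subtraction, with all spots in the normexp fit and from array 2 alone, each time without Tapbp, and 4 with median centring, without Tapbp and H2-T23 (0.13 on array 1). None was called higher in Lgr5-high cells under any alternative. H2-K1, H2-D1, H2-Q7 and B2m were called in 13 of 13 settings, the main one included, with means of 3.28 to 4.62, 2.35 to 3.31, 2.06 to 3.31 and 1.67 to 3.42. Behind these means the arrays could lie far apart. With median centring, arrays 1 and 2 gave 1.99 and 6.47 for H2-K1, 0.85 and 5.12 for H2-D1 and 0.88 and 4.93 for H2-Q7. With all spots in the fit they gave 4.32 and 2.25 for H2-K1 and 2.51 and 0.82 for B2m.

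Counts over all genes moved more (451 to 295, 60.5% toward Lgr6-high). They were 958 and 958 (50%) with the scanner's ratios and the authors' value table, 212 and 204 (51.0%) without background subtraction, 124 and 151 (45.1%) with all spots in the fit, 684 and 428 (61.5%) with offset 16, and 134 and 57 (70.2%) with median centring. From 1 array alone they were 434 to 611 and 315 to 471. Pathway list counts of 12 and 0 became 7 higher in Lgr6-high cells with all spots in the fit, and 0 to 1 were higher in Lgr5-high cells from 1 array alone. Cell type list counts of 9 and 5 became 5 and 4 without background subtraction, 3 and 2 with all spots in the fit, 2 toward Lgr6-high with median centring, and 0 toward Lgr5-high with both populations above background. Other H2 region genes, 10 and 2, became 16 and 7 with the scanner's ratios and the authors' table, 6 and 1 with all spots in the fit, 6 and 0 with median centring, 6 and 1 with both populations above background, and 4 toward Lgr5-high with offset 16. The cause of these shifts was not tested. No paired analysis was possible because each array is itself a within-array ratio of the populations. Signal over background limits Tap1, Tap2 and Erap1 and the dim B2m probes.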
